A study of Mus musculus with 6 samples.

Results

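Fibroblast growth factors (FGFs) signal through receptor tyrosine kinases to the Ras, Raf, MEK and ERK cascade. Active ERK raises the transcription of its own brakes: the Sprouty (Spry) and Spred proteins, which act on the cascade upstream of MEK, and dual-specificity phosphatases such as Dusp6, which removes phosphate from ERK itself. It also raises ETS-family transcription factors such as Etv4. Transcript levels of these feedback genes are widely used as a readout of ERK activity, and cultured spermatogonia depend on FGF2 together with GDNF for self-renewal.

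The 10 genes described here are the receptors Fgfr1, Fgfr2, Fgfr3 and Fgfr4, the feedback inhibitors Spry1, Spry2, Spry4, Spred1 and Dusp6, and the transcription factor Etv4. They were taken by gene name from a table of 32285 genes, and all 10 were found and had enough counts to be tested among 15104 genes. The rule that picks them is a list of names and has no threshold on the values, but the list was drawn up with earlier results of these data known.

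The libraries came from germline stem (GS) cells, which are cultured spermatogonia, established from testes of DBA/2 mice of 2 to 3 days of age with genotype DBA/Tg14(act-EGFP-OsbY01), an EGFP transgene that both groups carry. The cells stayed frozen for 6 months, either on the International Space Station (Space, 3 libraries) or on Earth (Ground, 3 libraries), and RNA was taken the day after thawing. Before freezing they grew on mouse embryonic fibroblast feeders, whose transcripts map to the same genes as those of the germ cells. The treatment label of every library says the opposite of its title. Groups here follow the titles, and each direction would turn if the treatment labels were right. The study speaks of lines, but the labels do not say which libraries share a line or whether cultures were separate, so the p-values measure only the spread between these libraries.

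Totals ran from 19015985 to 24110916 counts per library, and mitochondrial genes took 2.51% to 11.5% of them. Summed germ cell markers (12 of 12 tested, among them Ddx4 and Dazl) lay between 3318 and 3477 CPM (counts scaled to a common library size, by the trimmed mean of M-values). Summed feeder fibroblast markers were 1029 to 1069 CPM in Ground and 859 to 1089 CPM in Space, with 17 of 18 lower in the Space mean. Sertoli cell markers summed to 25.6 to 29.8 CPM with Fshr at 0, and Leydig cell markers to 4.16 to 5.04 CPM with Hsd3b1 at 0. In these bulk samples fewer cells of a type and less RNA per cell cannot be told apart. No library held the same counts as another, but Ground-1 and Space-3 were the closest of the 15 pairs. The mean chi-square per gene between them was 1.82, against 13.4 to 108 in the others. These values do not tell whether libraries shared a culture or RNA.

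Promoter sequence is shown for the feedback genes Dusp6 and Spry1 and for the receptor gene Fgfr4, whose stretch holds a motif. Levels of these genes differed between libraries, those of Fgfr4 about as widely as those of Spry1. Each sequence is the 250 bases before the RefSeq start site (assembly GRCm38.p6, plus strand, written 5′ to 3′). The searched motifs were the ETS motif CCGGAA, the AP-1 motif TGACTCA and the CRE motif TGACGTCA, on both strands, and capitals mark a match. CCGGAA is a longer form of the ETS core GGAA. The core alone was not searched, and the unmarked Dusp6 and Spry1 stretches hold it.
Dusp6, chr10:99262981-99263230: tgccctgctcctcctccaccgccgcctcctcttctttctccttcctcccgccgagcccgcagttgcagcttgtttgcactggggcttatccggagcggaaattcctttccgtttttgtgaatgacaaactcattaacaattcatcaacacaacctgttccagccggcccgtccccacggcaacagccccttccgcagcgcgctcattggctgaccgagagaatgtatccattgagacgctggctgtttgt
Spry1, chr3:37639697-37639946: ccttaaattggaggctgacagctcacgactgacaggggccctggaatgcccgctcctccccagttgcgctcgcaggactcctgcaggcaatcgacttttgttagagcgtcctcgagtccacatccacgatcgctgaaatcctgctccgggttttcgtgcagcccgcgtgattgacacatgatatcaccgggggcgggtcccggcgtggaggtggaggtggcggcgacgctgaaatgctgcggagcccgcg
Fgfr4, chr13:55152568-55152817: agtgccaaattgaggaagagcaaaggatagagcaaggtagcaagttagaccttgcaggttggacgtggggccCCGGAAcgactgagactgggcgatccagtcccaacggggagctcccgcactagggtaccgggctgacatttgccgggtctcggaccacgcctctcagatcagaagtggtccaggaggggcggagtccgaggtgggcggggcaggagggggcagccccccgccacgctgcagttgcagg

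The RefSeq promoter table matched 7 of the 10 genes with 8 promoters, counted from 250 bases before to 50 bases after the start; Fgfr1, Etv4 and Spry4 were not matched. The ETS motif CCGGAA was in Fgfr4, 178 bases before the RefSeq start, and in Spry2, at base 34 after it. The gene start given below for Fgfr4 (55152640) lies upstream of its RefSeq start, inside the stretch shown, so this distance depends on the annotation. CCGGAA was in 14.9% of the 32851 promoters of the table. The AP-1 motif (5.20% of all promoters) and the CRE motif (1.79%) were in none of the 8. The absence of a match says only that these letters were not in the window.

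The comparison of Space with Ground asked whether storage in orbit left a change in gene expression. For the FGF receptors and the ERK feedback genes the groups had nearly the same means. In edgeR's quasi-likelihood test with Benjamini-Hochberg adjustment over all 15104 genes, 0 of the 10 passed 0.05 (adjusted p = 0.9999 for each), where 0% of all tested genes passed. At an unadjusted p under 0.05 it was 0 of 10, against 0.609% of all tested genes, and the smallest unadjusted p among the 10 was 0.486. DESeq2 and limma-voom also called 0 of the 10, with 0 at an unadjusted p under 0.05. The groups overlapped in each of the 10 genes, while they did not overlap in 3.59% of all tested genes. The median log2 fold change, Space minus Ground, was 0.017 for the 10 genes and -0.0020 for all tested genes.

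**Figure D1:**
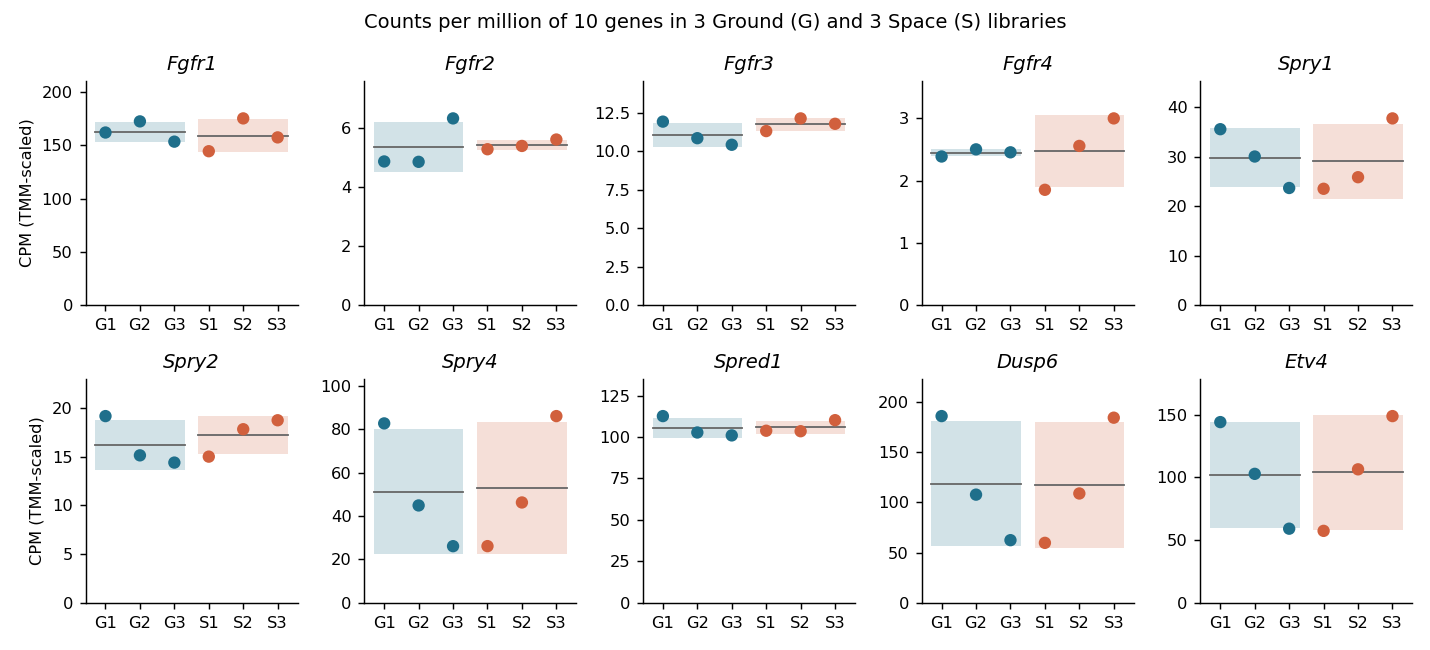
CPM of each gene (vertical axis, from 0) in the 3 Ground (G1 to G3) and 3 Space (S1 to S3) libraries. Points are libraries, lines are group means and bands are 1 SD on either side; Dusp6, Spry4 and Etv4 spread widely within each group while the group means lie side by side.

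Fgfr1 carried most of the receptor transcript. Fgfr1 (ENSMUSG00000031565; chromosome 8, 25513654 to 25575718, plus strand, GRCm38) is a receptor common in mesenchymal cells. In libraries numbered 1, 2 and 3 it had 162, 172 and 153 CPM for Ground and 144, 175 and 157 CPM for Space, the order kept for the genes below. The highest and the lowest library were both Space, and the log2 fold change was -0.032 (SE 0.083, 95% interval -0.22 to 0.16). The feeders also have mesenchymal character, and the feeder marker sum was lowest in Space-1, where Fgfr1 was lowest; its part in the Fgfr1 level was not tested.

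The other receptors were far weaker. Fgfr3 (ENSMUSG00000054252; chromosome 5, 33721674 to 33737068, plus strand) had 11.9, 10.9 and 10.4 CPM in Ground and 11.3, 12.1 and 11.8 CPM in Space. Its log2 fold change of 0.085 was the largest among the 10 genes and was within its SE of 0.12. Fgfr2 (ENSMUSG00000030849; chromosome 7, 130162451 to 133123350, minus strand), which binds FGFs of both epithelial and mesenchymal origin through its splice forms, had 4.86, 4.85 and 6.31 CPM in Ground and 5.27, 5.38 and 5.60 CPM in Space. All Space values of Fgfr2 lay inside the Ground range. Fgfr4 (ENSMUSG00000005320; chromosome 13, 55152640 to 55168759, plus strand), known as the receptor of FGF19-type hormones in liver, had 2.39, 2.50 and 2.46 CPM in Ground and 1.85, 2.56 and 3.00 CPM in Space. These were 45 to 75 counts per library, and the Space values of Fgfr4 lay on either side of the narrow Ground range.

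Per kb of exon, Fgfr1 made up 85.6% ± 0.90 of the summed receptor level in Ground and 84.9% ± 0.90 in Space (SD, n = 3). The difference of -0.77 percentage points did not pass a 2-sided exact permutation test (p = 0.4, where 0.1 is the smallest p that 3 against 3 allows). Fgfr3 made up 8.06% ± 0.58 and 8.69% ± 0.49, Fgfr4 3.60% ± 0.16 and 3.66% ± 0.73, and Fgfr2 2.71% ± 0.55 and 2.78% ± 0.23. Exons of Fgfr1 share 164 bases with Gm16159 on the opposite strand and those of Fgfr2 share 314 bases with Ctbp2 on the same strand. The opposite-strand overlaps were 13.9% of the exon length in Fgfr3 (G630022F23Rik) and 24.4% in Spry1 (Gm42922). Whether counting used strand is not given in the sources used here, so reads of these stretches cannot be assigned.

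Dusp6, Spry4 and Etv4 differed by 2.59-fold to 3.29-fold between libraries, and did so inside each group. Dusp6 (ENSMUSG00000019960; chromosome 10, 99263231 to 99267489, plus strand), the ERK phosphatase whose promoter is shown above, had 186, 108 and 62.4 CPM in Ground-1, Ground-2 and Ground-3. In Space-1, Space-2 and Space-3 it had 59.7, 109 and 184 CPM. Each group thus held 1 high, 1 middle and 1 low library, with the high values within 0.854% of each other, the middle ones within 1.06% and the low ones within 4.48%.

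Spry4 (ENSMUSG00000024427; chromosome 18, 38586247 to 38601415, minus strand), a Sprouty inhibitor of the Ras to Raf step, had 82.7, 44.9 and 26.1 CPM in Ground and 26.1, 46.3 and 86.0 CPM in Space. The high libraries were again Ground-1 and Space-3, and the low ones Ground-3 and Space-1. Etv4 (ENSMUSG00000017724; chromosome 11, 101769742 to 101785371, minus strand), an ETS factor induced by FGF and by GDNF signalling, had 144, 103 and 59.1 CPM in Ground and 57.4, 106 and 149 CPM in Space. Its libraries stood in the same order as those of Dusp6 within each group.

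The group means of these 3 genes were close and their errors large. For Dusp6 the mean was 119 ± 62.4 CPM over the Ground libraries and 118 ± 62.7 CPM over the Space libraries (n = 3 each, SD), with a log2 fold change of -0.013 (SE 0.46, 95% interval -1.09 to 1.06). Spry4 had 51.2 ± 28.8 and 52.8 ± 30.5 CPM, with 0.043 (SE 0.49). Etv4 had 102 ± 42.4 and 104 ± 45.7 CPM, with 0.031 (SE 0.39). With this spread the unadjusted 95% interval for Dusp6 reached from 0.470-fold to 2.09-fold, so the values do not exclude a change inside it. For Spred1 and Fgfr1 the intervals were narrower, 0.906-fold to 1.11-fold and 0.856-fold to 1.12-fold.

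**Figure D2:**
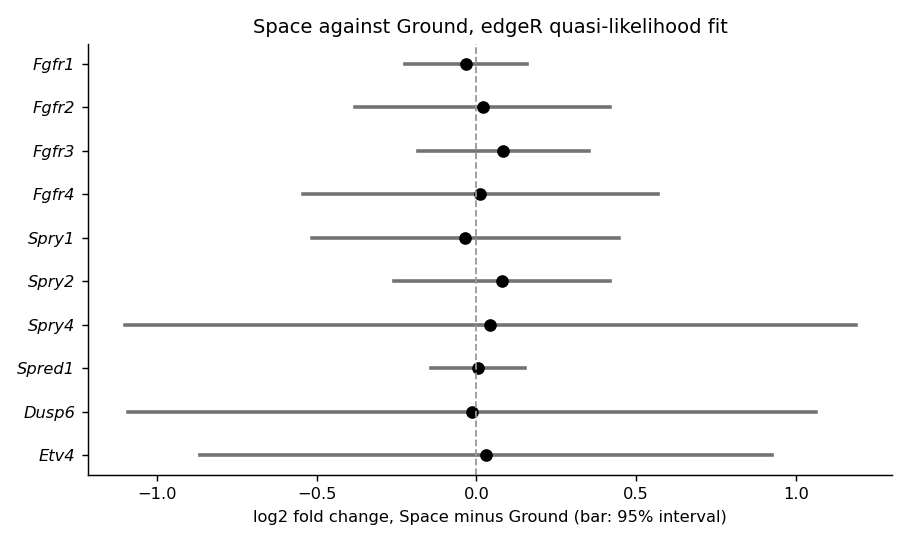
Log2 fold change, Space minus Ground, of the 10 genes (points) with 95% intervals (bars) from the edgeR fit. All intervals include 0; those of Spry4, Dusp6 and Etv4 are the widest and that of Spred1 the narrowest.

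The other Sprouty genes varied less. Spry1 (ENSMUSG00000037211; chromosome 3, 37639947 to 37644598, plus strand), which restrains GDNF and FGF signals, had 35.6, 30.1 and 23.7 CPM in Ground and 23.6, 25.9 and 37.8 CPM in Space, a 1.60-fold spread. Spry2 (ENSMUSG00000022114; chromosome 14, 105891947 to 105896819, minus strand) had 19.1, 15.1 and 14.4 CPM in Ground and 15.0, 17.8 and 18.7 CPM in Space, a 1.33-fold spread. In both genes Ground-1 and Space-3 were the highest libraries, as for Dusp6. Spred1 (ENSMUSG00000027351; chromosome 2, 117121374 to 117182279, plus strand), a membrane-bound inhibitor of Ras activation, had 113, 103 and 101 CPM in Ground and 104, 103 and 110 CPM in Space. Its 1.11-fold spread was the smallest of the 10 genes.

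**Figure D3:**
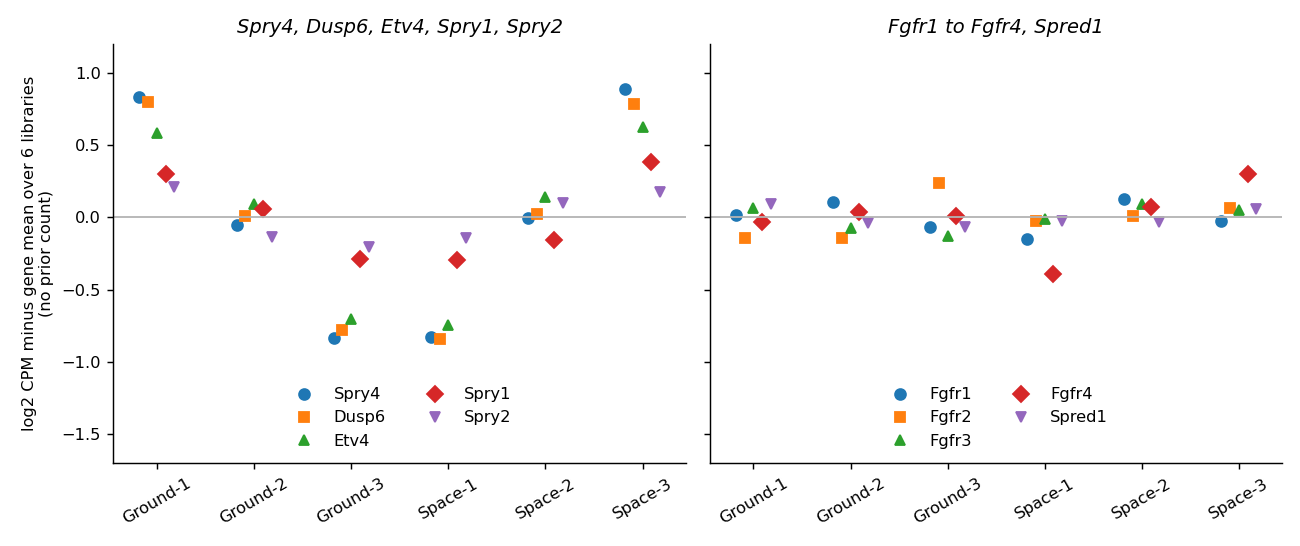
Log2 CPM of each gene minus its own mean over the 6 libraries (vertical axis), by library, without a prior count. Left, Spry4, Dusp6, Etv4, Spry1 and Spry2 are high in Ground-1 and Space-3 and low in Ground-3 and Space-1; right, the receptors and Spred1 are on the same scale, where Fgfr4, at 45 to 75 counts, spreads as widely as Spry1 (1.62-fold) and the others by 1.30-fold or less.

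The order of the libraries was noticed in the values and is described with no test. In 5 of the 10 genes (Spry1, Spry2, Spry4, Dusp6, Etv4) Ground-1 and Space-3 were the 2 highest libraries and Ground-3 and Space-1 the 2 lowest. For Spry2 this rests on a near tie, with Ground-2 only 0.88% above Space-1. That order held in 10.1% of all tested genes and its reverse in 10.2%, and in 0 of the 10 genes. By the median absolute difference of log2 CPM, the libraries that stand together in it were also closest over all tested genes. That difference was 0.069 for Ground-1 with Space-3 and 0.085 for Ground-3 with Space-1. It was 0.091 for Ground-2 with Space-2 and larger in every other pair. The mean chi-square per gene gave another picture for Ground-3, which was closer to Space-2 (13.4) than to Space-1 (23.6). A range of at least 1 on the log2 CPM scale, highest minus lowest library, was found in 3 of the 10 genes and in 17.3% of all tested genes. Among tested genes with a mean of at least 10 CPM, which all but Fgfr2 and Fgfr4 of the 10 have, it was found in 2.12%. Only 0.294% of those genes had a range as large as the 1.72 of Spry4, 0.358% one as large as the 1.64 of Dusp6 and 0.715% one as large as the 1.37 of Etv4.

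The summed endothelial, peritubular myoid and Sertoli cell markers stood in the same order. Sertoli cell markers summed to 29.8, 27.0 and 25.6 CPM in Ground and 26.6, 28.0 and 28.8 CPM in Space. Of these, Sox9 and Inha stood in the order. Wt1, the largest part at 16.1 to 19.7 CPM, Amh, Gata4 and Dhh did not. The summed endothelial markers were 22.0, 15.3 and 12.1 CPM in Ground and 11.5, 14.1 and 20.5 CPM in Space. Kdr and Cdh5 were high in Ground-1 and Space-3, Pecam1 lay between 7.46 and 8.85 CPM and Tek between 0.947 and 1.48 CPM. Peritubular myoid markers summed to 14.0, 12.5 and 8.68 CPM in Ground and 6.05, 10.9 and 13.3 CPM in Space. Of the tested ones only Des stood in the order. Acta2 had Ground-2 (6.18 CPM) above Space-3 (6.08 CPM), and Myh11 was highest in Ground-3 (2.06 CPM) and lowest in Space-3 (1.52 CPM). Macrophage markers did not stand in it: Ground-1 and Space-3 were the highest, but Space-1 lay above Ground-2. They summed to 22.6, 16.6 and 14.1 CPM in Ground and 17.3, 18.4 and 21.9 CPM in Space, nearly all of it Cd68, with Adgre1, Csf1r and Lyz2 under 0.1 CPM. Ptprc did stand in the order, at 1 to 26 counts per library. It had 0.535, 0.479 and 0.0438 CPM in Ground and 0.0412, 0.266 and 1.04 CPM in Space. The part of these cell types in the order of the feedback genes was not tested. The germ cell marker sum stayed within the range given above, and the mitochondrial share, highest in Ground-2 and Space-2, stood in another order.

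Levels were compared between genes as CPM per kb of the union of exons, over all 6 libraries. Dusp6 had 37.7 ± 17.9 and Etv4 33.2 ± 12.7 CPM per kb (SD, n = 6), and these 2 overlapped. Fgfr1 followed with 16.3 ± 1.18, below every Etv4 value, and overlapped with Spred1 at 15.6 ± 0.68. Spry4 (10.9 ± 5.58), Spry1 (10.1 ± 2.11) and Spry2 (8.0 ± 1.01) overlapped in turn, and the first of them also with Spred1. Fgfr3 at 1.60 ± 0.093 was apart from both neighbours, and Fgfr4 (0.694 ± 0.10) and Fgfr2 (0.521 ± 0.053) overlapped. The order depends on the length used: per kb of its longest transcript Fgfr1 had a mean of 31.9 CPM per kb, against 42.2 for Dusp6, 43.0 for Etv4 and 17.6 for Spred1, and Fgfr2 (1.21) passed Fgfr4 (0.740).

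**Figure D4:**
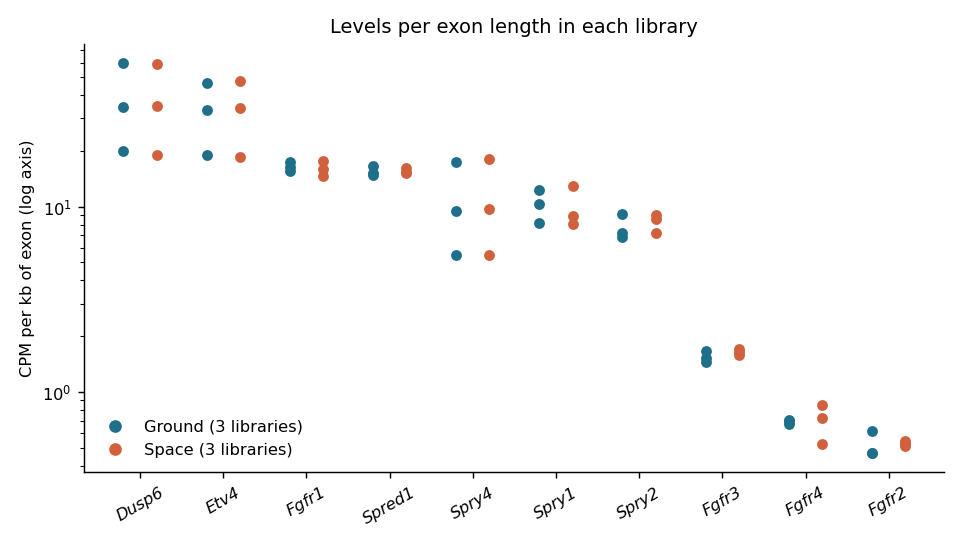
CPM per kb of exon (log axis) of the 10 genes in order of their mean, with a point for each Ground and Space library. Dusp6 and Etv4 are highest, Fgfr1 is the highest receptor, and the other receptors lie near or below 1.70.

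The rest of the pathway was read from a list of 74 further genes in 6 classes, of which 60 were tested. In edgeR's quasi-likelihood test with Benjamini-Hochberg adjustment 0 of 60 were higher and 0 lower in Space, with 1 at an unadjusted p under 0.05. That gene was the ligand Fgf2, named for its value, with 1.11, 0.745 and 1.58 CPM in Ground and 0.371, 0.533 and 0.720 CPM in Space. DESeq2 and limma-voom also called 0 of 60, with 0 and 1 at an unadjusted p under 0.05. The spread between libraries, in contrast, differed by class. The median range of log2 CPM was 0.19 in 8 adaptor and Ras exchange genes and 0.18 in 11 Ras, Raf, MEK and ERK genes, and 0 genes in either class had a range of 1 or more. It was 0.31 in 11 other feedback inhibitors and 1.07 in 10 other ERK-responsive transcription factors and targets, against 0.26 in all tested genes of at least 10 CPM. The 8 co-receptors and receptor-like genes had a median of 0.39, with 3 at a range of 1 or more (Kl, Klb and Flrt3, named for their values and all under 2 CPM). The FGF ligands had 1.25, at levels under 11 CPM where counting error is larger.

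**Figure D5:**
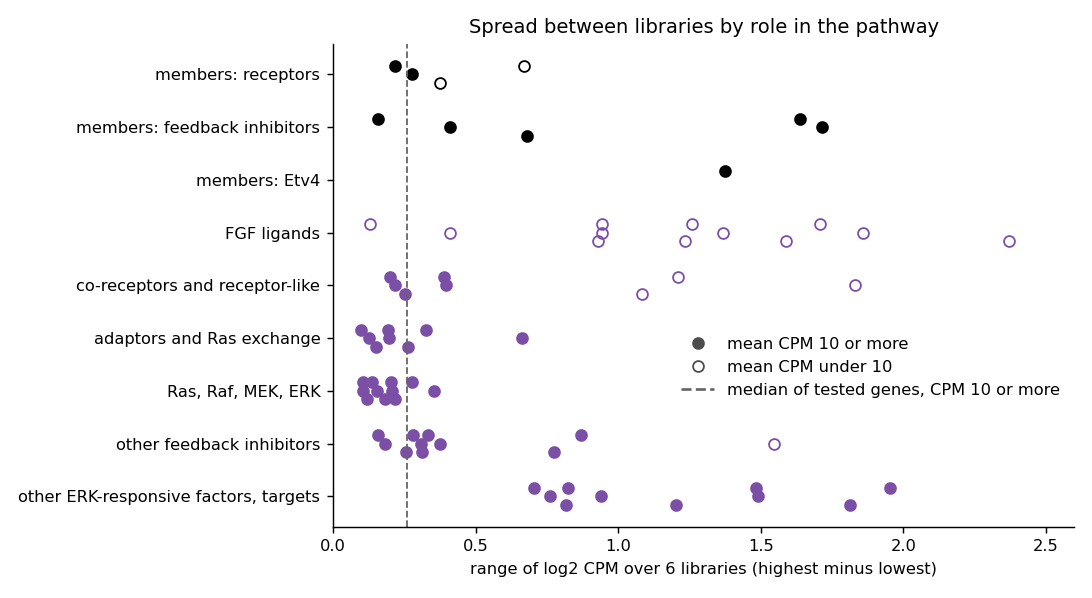
Range of log2 CPM over the 6 libraries (highest minus lowest, prior count 2) for each tested gene, by role in the pathway; open circles are genes with a mean under 10 CPM and the dashed line is the median of 0.26 of tested genes at or above it. Most receptors, adaptors and kinases lie near the line, apart from Fgfr4 (0.67) and Sos2 (0.66), and Spry4, Dusp6, Etv4 and the ERK-responsive factors lie to the right of it.

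The genes of highest level per kb in 5 of the 6 classes are given here. Among signal carriers, the heparan sulphate co-receptor Sdc4 had 718 to 825 CPM and the adaptor Grb2 80.0 to 87.4 CPM over the 6 libraries. Among outputs, the early response factor Egr1 had 608, 268 and 328 CPM in Ground and 345, 273 and 618 CPM in Space. It was high in Ground-1 and Space-3, as Dusp6 was, but lowest in Ground-2. The phosphatase Dusp9 ran the other way, with 193, 224 and 233 CPM in Ground and 239, 225 and 194 CPM in Space. The ligands of highest level per kb were Fgf18, with 7.20, 4.21 and 3.81 CPM in Ground and 3.71, 5.44 and 6.76 CPM in Space, and Fgf9, with 5.52 to 10.6 CPM.

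Genes of the list in the order of Dusp6 numbered 13 of 60, and 6 stood in the reverse order, against 10.1% and 10.2% of all tested genes. Chosen after its values were seen, Etv5, an ETS factor close to Etv4 and needed for spermatogonial stem cell renewal, had 259, 202 and 93.0 CPM in Ground and 99.1, 195 and 262 CPM in Space. Fosl1, also chosen this way and a partner in AP-1, had 20.9, 11.1 and 5.39 CPM in Ground and 5.60, 13.7 and 21.1 CPM in Space. Spred2, the nearest relative of Spred1 in the list, stood in the same order but over a spread of 1.30-fold only.

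The genes most like Spry4, Dusp6 and Etv4 across the 6 libraries were sought among 9509 genes with a mean of at least 10 CPM, by the root mean square difference of log2 CPM centred per gene. The closest to Spry4 were Dusp6 (0.057), Tmem132e (0.060) and Egr2 (0.075). The closest to Dusp6 were Spry4 (0.057), Tmem132e (0.057) and Arhgap45 (0.061). Thus Spry4 and Dusp6 were each other's nearest gene among these. The closest to Etv4 were Pde2a (0.060), Clcf1 (0.062) and Carmil2 (0.068), with Clcf1 at 57.0, 40.1 and 23.9 CPM in Ground and 22.2, 40.3 and 52.6 CPM in Space. The likeness is a description over 6 libraries.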

How the data were processed

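The data were raw counts, which the authors deposited as a single table of genes by libraries. Per the submitters' processing notes, bcl2fastq 2.20, cutadapt 4.1, HISAT2 2.2.1 and HTSeq 2.0.2 were used with the mm10 genome. The study's methods give another kit, sequencer and cutadapt release, and HTSeq's strand setting is not given in the sources used here. From the counts, edgeR 4.0.16 (R 4.3.3) fitted Space against Ground without a block: filterByExpr, TMM scaling, the 2-sided quasi-likelihood test and Benjamini-Hochberg adjustment over 15104 genes. CPM used TMM-scaled library sizes and log2 CPM a prior count of 2. A floor of 3 counts was 0.12 to 0.16 CPM, for counting error only. An SE is the size of the log2 fold change divided by the square root of F. Exon lengths, positions and overlaps came from the GENCODE annotation of GRCm38, promoters from RefSeq. Procedures were tested on simulated counts.

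The named genes were the 10 genes, the most abundant gene per kb of each pathway class (for ligands the top 2) and, for the 3 of the 10 with the largest range, the 3 most similar genes. A gene that this rule selects is not reported here. Others were chosen after their values were seen. The members and lists were chosen with earlier results of these data known. The alternatives comprised scaling by RLE or by total counts, 2 other filters on low counts, limma-voom (limma 3.58.1) and DESeq2 1.42.0 as tests, a block of replicate numbers, other gene lengths and leaving out each library.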

Additional observations from a re-analysis of the deposited data

How the results depend on the processing

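The count of genes past the threshold was 0 among the 10, 0 in the pathway list and 0 in all tested genes in each alternative and each fit without 1 library (0 to 0). All tested genes at an unadjusted p under 0.05 numbered 92 by edgeR, 45 by DESeq2 and 88 by limma-voom. The sign of values near 0 turned with total counts for Fgfr1 (0.0029), Spry1 (0.0017) and Dusp6 (0.016), a setting that moved the median of all genes to 0.033. It turned for Fgfr4 with limma-voom (-0.015) and with the replicate block of the title numbers (-0.012). Without 1 library the log2 fold change ran from -0.50 to 0.47 for Dusp6, -0.51 to 0.58 for Spry4, -0.32 to 0.37 for Etv4, -0.27 to 0.12 for Spry1, 0.0048 to 0.22 for Spry2 and -0.025 to 0.055 for Spred1. For these 6 genes the extremes came without Ground-1, Ground-3 or Space-3. It ran from -0.11 to 0.032 for Fgfr1, -0.045 to 0.16 for Fgfr2, 0.048 to 0.14 for Fgfr3 and -0.16 to 0.19 for Fgfr4, so the signs of Fgfr1, Fgfr2 and Fgfr4 turned between these fits. The median of the 10 ran from -0.091 to 0.14, and the Fgfr1 share difference from -1.22 to -0.27 percentage points. The lowest adjusted p of the 10 was 0.9997 in all these fits.

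The replicate block gave 0 genes past the threshold and 63 below an unadjusted p of 0.05. The median of the 10 was then 0.013. The labels do not pair the libraries: deviations of same-numbered libraries correlated at -0.48, 0.28 and -0.60 over 1000 genes. Only number 2 correlated best with its own number. Ground-1 correlated best with Space-3 and Ground-3 with Space-1, pairs that the block of title numbers does not join. The Fgfr1 share, paired by title number, had an exact sign-flip p of 0.25, the smallest possible. With 3 libraries a group, the unadjusted intervals of the fit without a block were wide for Dusp6, Spry4 and Etv4. They reached from 0.470-fold to 2.09-fold for Dusp6, 0.466-fold to 2.28-fold for Spry4 and 0.549-fold to 1.9-fold for Etv4. Changes inside these intervals are not excluded. What size of change would pass the adjusted threshold was not calculated.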

Other observations

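The values of 3 genes outside the 10 are given here, chosen after they were seen. Ccnd1, the G1 cyclin often placed downstream of ERK, had 111, 145 and 191 CPM in the Ground libraries numbered 1, 2 and 3 and 196, 142 and 113 CPM in those of Space. Nanos2, an RNA-binding protein that keeps spermatogonia undifferentiated, had 4.78, 5.16 and 12.1 CPM in Ground and 11.4, 6.39 and 5.60 CPM in Space. In both genes the libraries Ground-3 and Space-1, which were lowest for Dusp6, were the highest. The reverse of the order of Dusp6 held for Ccnd1 but not for Nanos2, in which Ground-1 and Ground-2 were the lowest. Gfra1, the GDNF co-receptor on stem spermatogonia, had 142, 149 and 100 CPM in Ground and 101, 141 and 148 CPM in Space, lowest in the libraries where Dusp6 was lowest. Of the 12 germ cell markers, 0 stood in the order of Dusp6 and 2 (Sall4 and Mael) in its reverse. Among all tested genes these shares were 10.1% and 10.2%. No test was run on these orders.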
